A study of Mus musculus with 6 samples.

Results

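The enzymes that build purine nucleotides from small precursors were examined in mouse MLL-AF10 leukemia cells given vehicle or an IKK inhibitor. A list of 10 enzyme genes defined the set: Prps1, Ppat, Gart, Pfas, Paics, Adsl, Atic, Impdh1, Impdh2 and Gmps. Probe sets carrying exactly 1 gene symbol were found for 9 of the 10, with 1 probe set each, among 19847 genes tested. Impdh2 is not analysed here. The cells carry a fusion of the histone methyltransferase gene MLL to AF10 and were grown in medium with serum and WEHI-conditioned medium, a supplement made from cultured WEHI cells. The groups were 3 samples given vehicle and 3 given 0.5 µM of an inhibitor of the IKK kinases, which release NF-kB transcription factors from their cytoplasmic inhibitors. The compound's name, the treatment time and whether the line is 1 clone were not stated in the labels. Total RNA was converted to biotin-labelled sense-strand DNA and read on 6 whole-transcript arrays, 1 per sample. The labels call the samples triplicates without saying if they were separate cultures, so a p-value here covers just the spread among these arrays, which may be technical.

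Purine nucleotides supply RNA, DNA, ATP, GTP and many cofactors, and dividing cells make much of their purine from the beginning. In this pathway a phosphorylated sugar, PRPP, receives nitrogen from glutamine, glycine and aspartate and carbon from folate until the ring of IMP is closed, and IMP is then turned into AMP or GMP. Cells can also recover purine bases and nucleosides by salvage. The transcription factor MYC is known to bind and activate many of these enzyme genes.

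Upstream sequences of 3 of these genes are shown to describe where the E box, the 6 letters CACGTG, occurs. The E box is the textbook binding motif of MYC with its partner MAX. RefSeq windows of 300 bases in build GRCm38.p6, from 250 bases before the annotated start to 50 after it, were found for 8 of the 9 measured genes. Pfas had none. Both strands are covered because the motif is its own reverse complement. It was present in the windows of Paics and Atic, and in 7.15% of all 32851 windows of the table. Capitals mark the motif in the sequences below, which read 5′ to 3′ on the strand of the gene.
Atic, the 250 bases before the start, chr1:71556906-71557155, plus strand: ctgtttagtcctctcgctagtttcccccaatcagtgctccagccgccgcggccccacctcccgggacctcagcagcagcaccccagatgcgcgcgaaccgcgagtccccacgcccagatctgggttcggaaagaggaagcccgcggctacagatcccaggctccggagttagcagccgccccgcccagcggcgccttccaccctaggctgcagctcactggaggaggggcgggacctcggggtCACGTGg
Paics, the 30 bases around its motif, chr5:76951087-76951116, plus strand: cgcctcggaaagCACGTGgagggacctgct
Prps1, the 250 bases before the start, chrX:140456353-140456602, plus strand: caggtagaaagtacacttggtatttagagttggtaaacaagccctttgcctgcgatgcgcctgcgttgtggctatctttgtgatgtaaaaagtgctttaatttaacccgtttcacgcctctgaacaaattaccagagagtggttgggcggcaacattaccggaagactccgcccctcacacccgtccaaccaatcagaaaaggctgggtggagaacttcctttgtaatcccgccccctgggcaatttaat
In Atic the motif ran from position -7 to -2, next to the annotated start, and in Paics from -203 to -198. Prps1, chosen for display because its transcript fell the furthest, holds no such letters in this window. A match is a description of the letters and not of binding. Whether the motif has a part in the lower transcripts was not tested. Ppat and Paics lie on opposite strands, and their annotated genes overlap at their starts, which are 276 bases apart in this table. The Paics motif thus lies inside the annotated Ppat gene, outside the window of Ppat.

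Transcripts of the purine synthesis enzymes were lower with the IKK inhibitor. Of the 9 genes measured, 8 fell in limma's test at a Benjamini-Hochberg adjusted p under 0.05, and none rose. Of all genes tested, 6.75% were called lower and 7.1% higher. All the enzymes but Impdh1 lay above the median intensity. In a separate fit of such genes, 22.2% were called lower, these 8 enzymes among them. At an unadjusted p under 0.05 all 9 enzymes were lower, beside 13.9% of all genes tested. The falls of the 8 called genes were modest, from 14.2% for Adsl to 28.2% for Prps1, and Pfas, not called, fell by 10.5%. The median log2 fold change of the 9 genes was -0.24, beside 0.01 over all genes tested. In each of the 9 the highest inhibitor array lay below the lowest vehicle array, an arrangement found for 17.2% of all genes tested. The summed intensity of the 9 genes was 14502 to 14928 on the vehicle arrays and 11767 to 12579 on the inhibitor arrays. Because bulk RNA was measured, fewer cells of a type and less RNA per cell cannot be told apart.

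**Figure D1:**
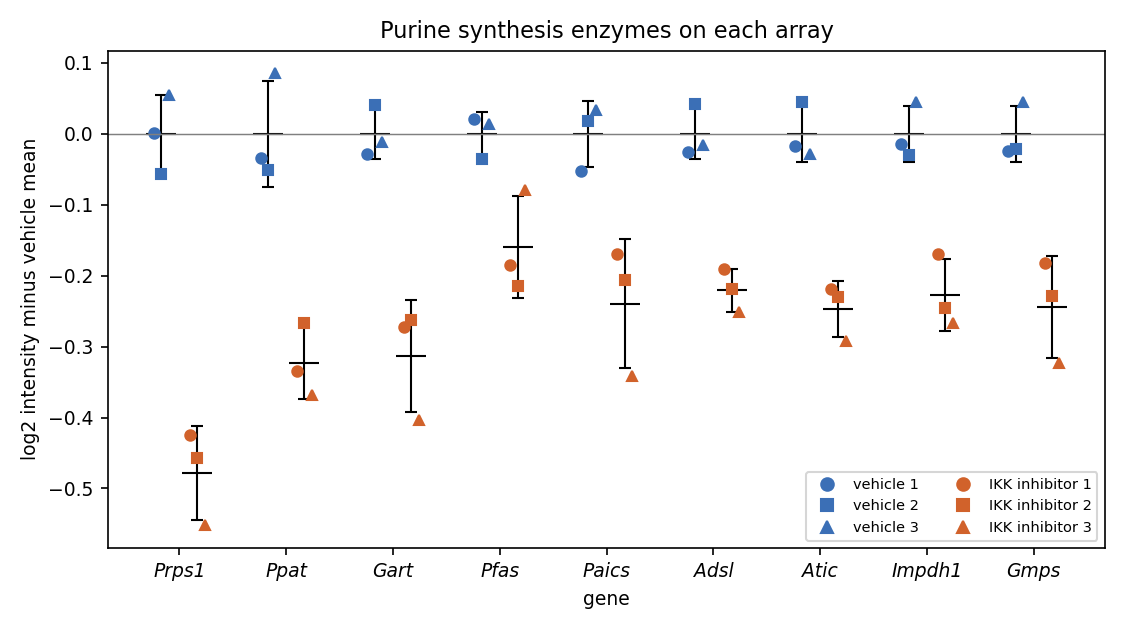
Log2 intensity of each of the 9 enzyme genes on each array, minus the mean of the 3 vehicle arrays of that gene. Points are single arrays, horizontal bars are group means and whiskers are SD (n = 3 each). Inhibitor points lie below every vehicle point of the same gene, and inhibitor array 3 is the lowest point for 8 of the 9.

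Prps1, which encodes a synthetase of the sugar donor PRPP, showed the largest fall of the set. Its intensities were 1341, 1288 and 1391 on vehicle arrays 1, 2 and 3 and 998, 976 and 914 on inhibitor arrays 1, 2 and 3. The groups do not overlap, and the gap between them is wider than the range within either. The log2 fold change was -0.48 ± 0.06 (SE; 95% interval -0.62 to -0.34), with an adjusted p of 0.00342 by limma. Among all 19847 genes, 155 had a more negative log2 fold change. It was the only one of the 9 called in each of the 6 fits that leave out 1 array, with adjusted p between 0.0104 and 0.0209.

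The related genes of PRPP synthesis did not all follow Prps1. Prps2 encodes a second PRPP synthetase, and it averaged 1333 ± 20.3 on the vehicle arrays and 1317 ± 50.7 on the inhibitor arrays (SD, n = 3 each). Its log2 fold change was -0.02 (95% interval -0.14 to 0.10). The log2 difference between Prps1 and Prps2 was 0.02, -0.07 and 0.08 on the vehicle arrays and -0.41, -0.48 and -0.47 on the inhibitor arrays. It thus shifted by -0.46, with group SD of 0.08 and 0.04. An exact 2-sided permutation test over arrays gave p = 0.1, the smallest that 3 against 3 allows. Prpsap1 and Prpsap2, which encode associated proteins of the synthetase complex, fell by 0.21 and 0.37 on the log2 scale (adjusted p = 0.0314 and 0.0389 by limma). Those 2 calls held without inhibitor array 2 and in no other fit that leaves out an array, where adjusted p lay between 0.062 and 0.13, and median centring ended that of Prpsap1 (0.101). Prps1l1, a retrogene relative of Prps1, showed a log2 fold change of 0.01 (adjusted p = 0.945 by limma). It read 75.7 to 92.9 on single arrays, within the ranges of the T cell markers (37.6 to 237) and stromal markers (51.7 to 289). Its signal may thus be near background, and its lack of change is uncertain for that reason.

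Ppat encodes the amidotransferase that commits PRPP to purine synthesis. Its intensities were 1045, 1033 and 1136 on the vehicle arrays and 849, 889 and 829 on the inhibitor arrays. The inhibitor arrays lie close together and below each vehicle array. The log2 fold change was -0.32 ± 0.06 (SE), a fall of 20.1%, with an adjusted p of 0.0153 by limma. The call was lost without vehicle array 3 (adjusted p = 0.058) and without inhibitor array 1 (0.0631).

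Gart encodes a protein with several activities of the early ring-building steps. It read 1877, 1969 and 1900 on the vehicle arrays and 1585, 1596 and 1447 on the inhibitor arrays. Inhibitor array 3 was the lowest, and the groups do not overlap. The log2 fold change was -0.31 ± 0.06 (SE), with an adjusted p of 0.0159 by limma. Without vehicle array 2 it was 0.07 and without vehicle array 3 it was 0.0611.

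Pfas, which encodes the glutamine-using synthase of the middle of the pathway, was the one measured enzyme that did not pass the test. Its intensities were 1014, 975 and 1009 on the vehicle arrays and 879, 861 and 946 on the inhibitor arrays. Inhibitor array 3 was the highest of its group here, unlike in the other 8 genes, yet still below each vehicle array. The log2 fold change was -0.16 (95% interval -0.29 to -0.03), with an adjusted p of 0.114 by limma. It passed with array weights (0.0432), with an intensity trend and robust prior (0.019) and among genes above the median intensity (0.0301).

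Paics encodes a carboxylase joined to a synthetase. Its intensities were 2999, 3149 and 3185 with vehicle and 2765, 2696 and 2455 with the inhibitor. The inhibitor arrays were more spread than the vehicle arrays, with SD of 163 and 98.5. The log2 fold change was -0.24 ± 0.06 (SE). Its adjusted p of 0.049 by limma lay just inside the threshold, and it was between 0.0657 and 0.157 when any 1 of the 6 arrays was left out.

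Adsl and Atic act at the end of IMP synthesis. Adsl encodes a lyase that is used again on the way from IMP to AMP, and Atic encodes the enzyme that adds the last carbon from folate and closes the ring. Adsl read 1830, 1916 and 1841 on the vehicle arrays and 1631, 1599 and 1564 on the inhibitor arrays. Its log2 fold change was -0.22 ± 0.05 (SE), with an adjusted p of 0.0274 by limma. For Atic the intensities were 2508, 2619 and 2488 with vehicle and 2182, 2165 and 2073 with the inhibitor. Its log2 fold change was -0.25 ± 0.05 (SE), with an adjusted p of 0.0215 by limma. In both genes the inhibitor arrays were tightly grouped, and neither group reached the other. Both calls held without inhibitor array 2 (0.0486 and 0.0369) and were lost without each of the other 5 arrays, where adjusted p ran from 0.055 to 0.107.

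Impdh1 and Gmps encode the enzymes of the branch from IMP to GMP. Impdh1 encodes an IMP dehydrogenase, the step that commits IMP to guanine nucleotides. Its probe set read 163, 162 and 170 on the vehicle arrays and 147, 139 and 137 on the inhibitor arrays. Its log2 fold change was -0.23 ± 0.05 (SE), with an adjusted p of 0.0321 by limma. With an intensity trend and robust prior the Impdh1 call was lost (0.063). The Impdh1 values lie within the ranges of the T cell markers (37.6 to 237) and stromal markers (51.7 to 289). Its signal may thus be near background, and its fall is less certain for that reason. Gmps encodes GMP synthetase, which uses glutamine. It read 1724, 1727 and 1808 with vehicle and 1545, 1496 and 1401 with the inhibitor, and its log2 fold change was -0.24 ± 0.06 (SE; adjusted p = 0.0333 by limma). Neither gene's groups overlap, but neither call held when any 1 of the 6 arrays was left out. Adjusted p was then 0.0612 to 0.12 for Impdh1 and 0.0542 to 0.121 for Gmps.

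**Figure D2:**
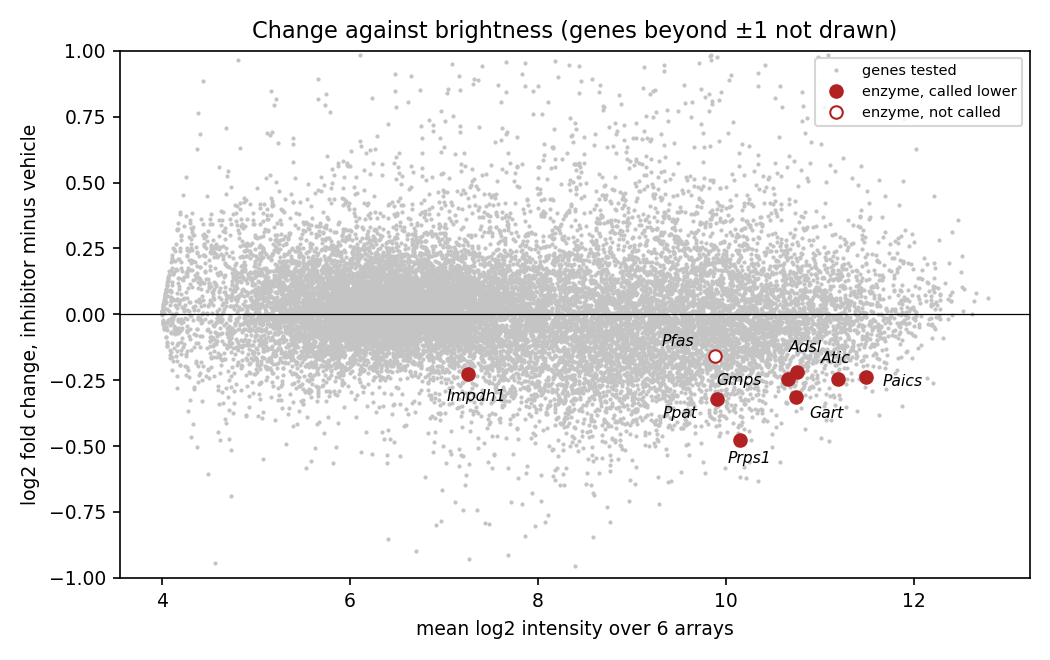
Log2 fold change, inhibitor minus vehicle, against mean log2 intensity over the 6 arrays for the genes tested (grey) and the 9 enzyme genes (red, filled where called lower); genes whose change exceeds 1 either way are not drawn. The enzymes lie between -0.48 and -0.16, and all but Impdh1 lie above the median intensity of the genes tested.

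Leaving out an array moved the log2 fold changes of the 9 enzymes within -0.51 to -0.13. Since the groups do not overlap in any of the 9, their sign could not change in these fits. The count of enzymes called lower fell from 8 to 3, 2 and 1 without vehicle arrays 1, 2 and 3, and to 2, 5 and 3 without inhibitor arrays 1, 2 and 3. Over all genes tested, the share called lower fell from 6.75% to 3.44%, 1.99% and 2.11% without vehicle arrays 1, 2 and 3, and to 2.25%, 6.55% and 3.9% without inhibitor arrays 1, 2 and 3. Centring the arrays on their medians left 3 enzymes called (Prps1, Ppat and Gart) beside 4.8% of all genes, although the median log2 fold change of the 9 was then -0.28. Centring on the median of the genes tested left 6 enzymes, beside 5.61% of all genes, without Paics (adjusted p = 0.0659) and Adsl (0.0545). In a separate fit of the genes above the median intensity, with its own adjustment, 22.2% were called lower, and there the 8 enzymes that remained, all but Impdh1, were each called lower.

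**Figure D3:**
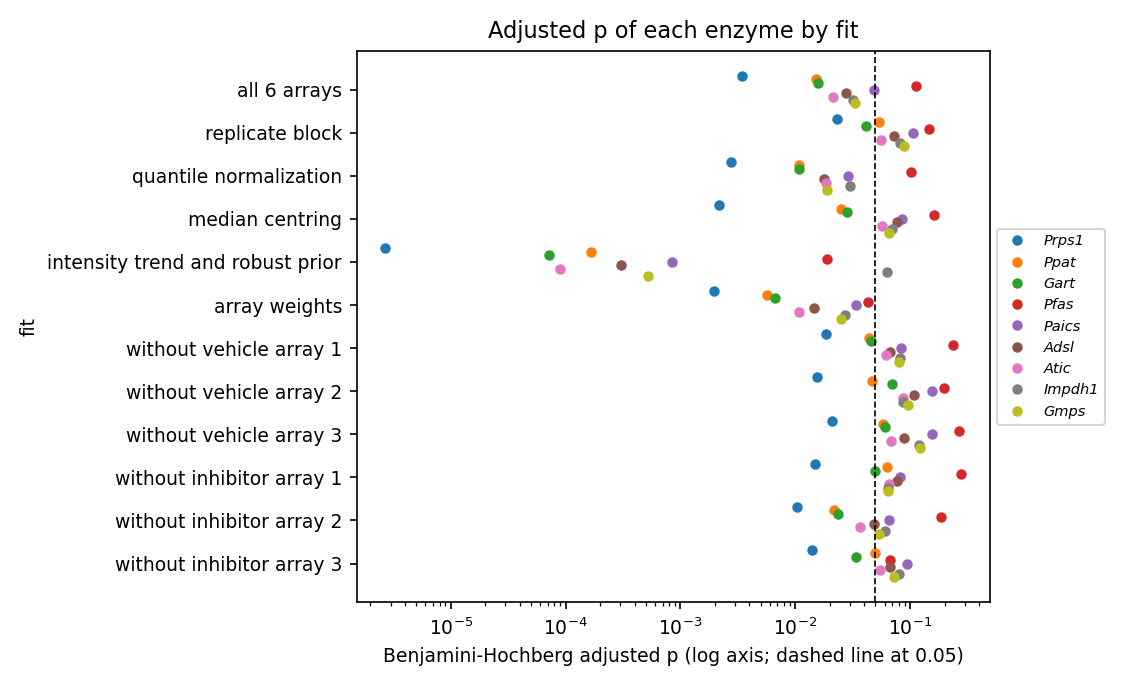
Benjamini-Hochberg adjusted p of each of the 9 enzyme genes from limma on a log axis, for the fit over 6 arrays and for 11 other fits. The dashed line is the threshold of 0.05. Prps1 lies left of it in each fit shown, while each of the other 7 called genes lies right of it in at least 2 of the fits.

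The step from IMP towards AMP, which is outside the set, did not pass the test. Adss, an adenylosuccinate synthase gene, averaged 1949.5 ± 44.6 on the vehicle arrays and 1782 ± 37.1 on the inhibitor arrays (SD, n = 3 each). Its log2 fold change was -0.13 (95% interval -0.24 to -0.02), and it passed with an intensity trend and among genes above the median intensity. For its paralog Adssl1 the log2 fold change was 0.10 (-0.01 to 0.22). Salvage genes gave no call either, with 0 of 5 at an adjusted p under 0.05 by limma and a median log2 fold change of -0.05. Hprt encodes the enzyme that recovers hypoxanthine and guanine, and it averaged 1764 ± 53.1 on the vehicle arrays and 1869.7 ± 59.9 on the inhibitor arrays (SD, n = 3 each; log2 fold change 0.08, 95% interval -0.04 to 0.21). Adk (-0.14), Dck (-0.09) and Dguok (-0.05) also did not pass. At an unadjusted p under 0.05, 1 salvage gene, Adk, was lower (95% interval -0.26 to -0.01), and it passed with array weights and above the median intensity.

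Genes that interconvert or break down purines moved both ways, with 3 of 12 called higher and 2 lower. Ampd3, which encodes an AMP deaminase, rose from 519 ± 5.86 to 863 ± 31.0 (SD, n = 3 each), or by 0.73 ± 0.05 (SE) on the log2 scale, with an adjusted p of 0.000294 by limma. Xdh, which encodes the oxidoreductase that makes uric acid, rose by 0.49 ± 0.06 on the log2 scale. Both calls held in each of the 6 fits that leave out an array. Gda, a guanine deaminase gene, rose by 0.20, a call lost whichever array was left out and with median centring (adjusted p = 0.265). Ada, which encodes adenosine deaminase, fell by 0.34, and its call held without vehicle array 1 and without inhibitor array 2 but not without the other 4 arrays (0.0501 to 0.0647). The other member called lower was Nt5c3b (-0.20, named after its value was seen), whose call was lost whichever array was left out.

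Among kinases that make nucleoside di- and triphosphates, 4 of 10 were called lower and none higher, with a median log2 fold change of -0.16. Nme1 and Nme4, nucleoside diphosphate kinase genes, fell by 0.36 and 0.38 on the log2 scale, and these calls held in each of the 6 fits that leave out an array. Nme1 has a close relative in Nme2, so its value is uncertain to that extent. Nme6 fell by 0.21 and Ak3 by 0.26, and each of these calls held in 1 of the 6 fits. Median centring ended the calls of Nme6 (adjusted p = 0.0822) and Ak3 (0.0829). The Nme6 call was also lost with the mean of its probe sets (0.0586). Without vehicle arrays 1, 2 or 3 or inhibitor array 1 the list had 2 calls.

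Suppliers of the pathway moved in part. Of 9 folate enzymes, 2 were called lower. Aldh1l2, a mitochondrial enzyme that oxidizes 10-formyltetrahydrofolate, fell by 0.64 ± 0.08, and the serine hydroxymethyltransferase gene Shmt1 fell by 0.42 ± 0.05 on the log2 scale (SE), both in each of the 6 fits. Mthfd1, whose product makes the formyl donor used by Gart and Atic, did not pass (log2 fold change -0.26, 95% interval -0.45 to -0.08, adjusted p = 0.0717 by limma). It passed without inhibitor array 3 (0.0246), with an intensity trend (0.00575) and with array weights (0.0166). It also passed above the 25th percentile of intensity (0.0415), above the median intensity (0.019) and with centring on the median of the genes tested (0.0456). Mthfd1l (-0.16, adjusted p = 0.0666 by limma) passed with the intensity trend, array weights and both filters. At an unadjusted p under 0.05, 5 of the 9 were lower, beside 13.9% of all genes tested. Of 7 glutamine and aspartate genes, Got1, an aspartate aminotransferase gene, fell by 0.31 ± 0.05 in each of the 6 fits, the glutamine carrier gene Slc1a5 fell by 0.25 and the glutamine synthetase gene Glul rose by 0.29. The Slc1a5 call held only without inhibitor array 3 and the Glul call only without vehicle array 2. Of 6 pentose phosphate genes, which supply ribose phosphate, Taldo1 rose by 0.26 and Pgls fell by 0.23. The list had a median log2 change of 0.12, and in 4 of the 6 the inhibitor arrays all lay above the vehicle arrays, as in 15.7% of all genes tested. Pgd (0.18, adjusted p = 0.07) and Tkt (0.13, adjusted p = 0.131) did not pass by limma, but both were called higher with an intensity trend, with array weights and above the median intensity. The list had 4, 3 and 3 higher calls in those fits. Taldo1 was called without inhibitor array 2 and Pgls without inhibitor array 3, and in none of the other fits that leave out an array. Median centring ended the calls of Taldo1, Pgls and Glul (adjusted p = 0.11, 0.0573 and 0.116).

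Pyrimidine synthesis genes were called lower for 4 of 5 and higher for 1, with a median log2 fold change of -0.33. Without vehicle arrays 1, 2 and 3 and inhibitor array 1 the lower calls numbered 2, 1, 2 and 1. Umps, which encodes the last enzyme of UMP synthesis, fell by 0.37 ± 0.05 on the log2 scale (SE), in each of the 6 fits that leave out an array. Cad, which encodes the enzyme of the initial steps, fell by 0.36 ± 0.06, a call lost without vehicle array 2 (adjusted p = 0.0588) and inhibitor array 1 (0.0565). Dhodh fell by 0.29, a call that held only without inhibitor array 3. Ctps, the CTP synthase gene, was named after its value was seen and fell by 0.33, a call that held only without inhibitor array 2. Its paralog Ctps2 rose by 0.23 (adjusted p = 0.0203 by limma), a call lost without each vehicle array and inhibitor array 1 and with median centring (0.18). Of 8 genes of pyrimidine salvage and thymidylate supply, 4 were called lower and none higher. Dctd fell by 0.34, in each of the 6 fits, and Dtymk by 0.28, a call that held without vehicle array 2 and without inhibitor array 2 but in none of the other 4 fits. Uck2 (-0.20) and Tk1 (-0.19) were called over all 6 arrays but not when any 1 was left out, nor with median centring (adjusted p = 0.101 and 0.127). None of the 3 ribonucleotide reductase genes was called by limma over all 6 arrays, and their log2 fold changes were -0.12 for Rrm1 and -0.17 for Rrm2 and Rrm2b. All 3 were lower at an unadjusted p under 0.05 and passed among genes above the median intensity. Among 4 nucleoside carriers, Slc29a2 fell by 0.28, a call lost without vehicle array 2 (0.0604) and inhibitor array 1 (0.0545).

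**Figure D4:**
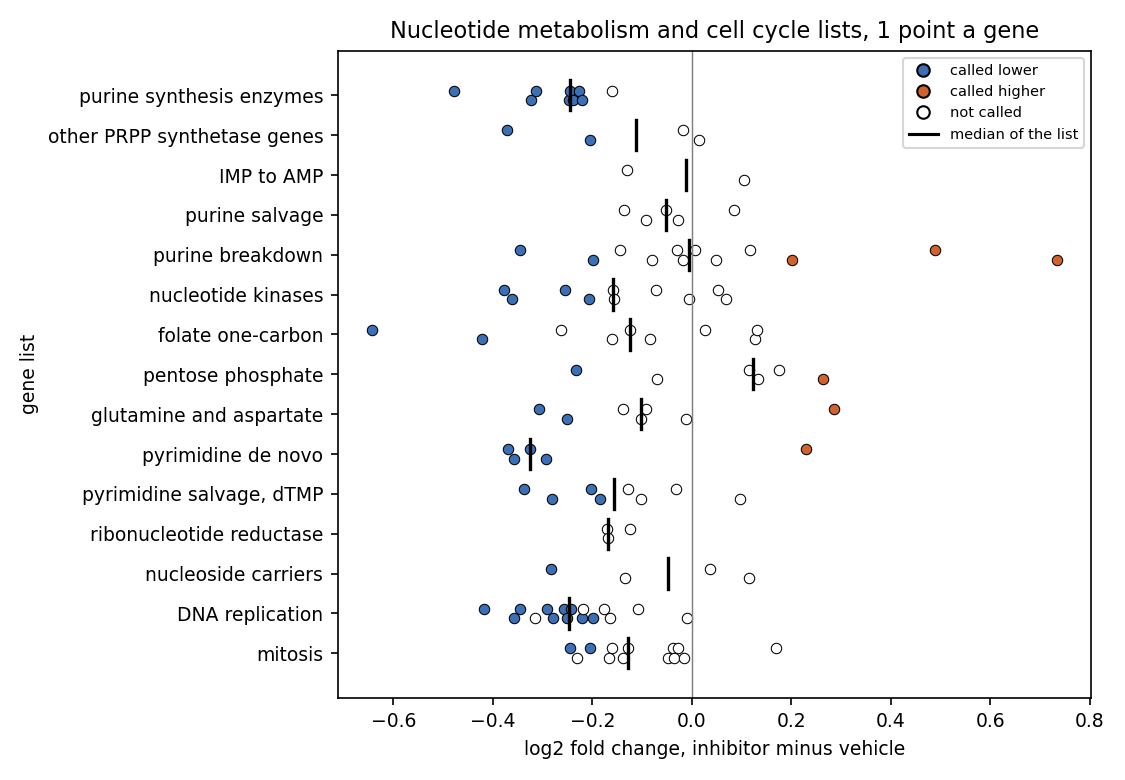
Log2 fold change, inhibitor minus vehicle, of each gene in the lists of nucleotide metabolism and the cell cycle. Each point is 1 gene, coloured by limma's call over 6 arrays, and the black bar is the median of the list. The medians are -0.24 for the purine synthesis enzymes, -0.33 for pyrimidine synthesis, -0.05 for purine salvage and -0.25 for DNA replication.

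Over the 75 measured genes of the other nucleotide lists together, 22 were called lower and 6 higher, and the median log2 fold change was -0.10. Of all genes tested, 6.75% were called lower and 7.1% higher. The lower calls among the 75 numbered 10, 8 and 9 without vehicle arrays 1, 2 and 3 and 7, 15 and 14 without inhibitor arrays 1, 2 and 3. In those fits 1.99% to 6.55% of all genes tested were called lower. The higher calls among the 75 numbered 2, 3 and 2 without the vehicle arrays and 2, 4 and 3 without the inhibitor arrays, in the same order. Whether the enzyme set differs from these lists was not tested.

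Myc fell with the inhibitor. It read 2424, 2334 and 2385 on the vehicle arrays and 1900.2, 1811 and 1895 on the inhibitor arrays, which do not overlap. The log2 change was -0.35 ± 0.05 (SE; adjusted p = 0.0056 by limma), and the call held in each of the 6 fits that leave out an array. It was the one call among 6 regulators examined. Max (-0.16), Mycn (0.05) and Mxd4 (0.14) did not pass. The part of Myc in the lower enzyme transcripts was not tested.

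Cell cycle and cell type markers moved in the same cells. Of 16 DNA replication genes 10 were called lower and none higher, with a median log2 fold change of -0.25, about that of the enzymes. Fen1, which encodes a flap nuclease, fell by 0.34 in each of the 6 fits. The replication complex genes Gins1 (-0.36), Gins2 (-0.28) and Cdc45 (-0.26) were called over all 6 arrays and in 4, 3 and 2 of the 6 fits. The list had 2, 1 and 1 calls without vehicle arrays 1, 2 and 3, and 3, 9 and 6 without inhibitor arrays 1, 2 and 3. The summed intensity of the 16 genes was 22761 to 23461 with vehicle and 19762 to 20764 with the inhibitor. Of 13 mitosis genes 2 were called lower (Bub1b and Cdc20, both held without inhibitor array 2 and in no other such fit, and lost with median centring). Log2 fold changes were negative for 12 of the 13, with a median of -0.13. At an unadjusted p under 0.05, 5 were lower, beside 13.9% of all genes tested, and 1 was higher. Cdk1 did not pass (-0.23, adjusted p = 0.0562 by limma) but was called lower in 6 of the alternative fits. The proliferation marker Mki67 did not pass (log2 fold change 0.17, 95% interval 0.05 to 0.28, adjusted p = 0.0676 by limma). It passed as higher with an intensity trend (0.00168), above the 25th percentile of intensity (0.0351) and above the median intensity (0.0131). Monocyte and macrophage markers were higher, with 11 of 12 called and a median log2 fold change of 0.99. Their summed intensity was 10727 to 11124 with vehicle and 19937 to 21562 with the inhibitor. Maturing neutrophil markers were called higher for 6 of 7, with sums of 3887 to 4081 and 6815 to 7460. Of 5 early granulocyte and monocyte progenitor markers 4 were called lower, with sums of 15511 to 16137 and 12946 to 13431. No marker of these lists had a value of 0 on any array. The part of the cell cycle and of these cell states in the lower enzyme transcripts was not tested.

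The labelled cell type was checked by its markers. The leukocyte genes Ptprc and Spi1 and the MLL fusion targets Hoxa9, Hoxa10 and Meis1 had mean intensities between 1076 and 2931 in both groups. Kit, a progenitor receptor gene, fell by 0.54 on the log2 scale, a call that held without inhibitor array 2 or 3 but not without any of the other 4 arrays. Ptprc rose by 0.19, a call lost whichever array was left out and with quantile normalization or median centring. T cell markers lay between 37.6 and 237, erythroid markers between 66.1 and 172 and stromal markers between 51.7 and 289 on single arrays, with no call by limma over all 6 arrays in these 3 lists and 0 genes at an unadjusted p under 0.05. Of 4 B cell markers, at 21.2 to 158, Cd22 was called higher, by 0.79 on the log2 scale. Cd79a did not pass (-0.33, adjusted p = 0.0869 by limma), but was called lower with quantile normalization (0.0374) and with median centring (0.0187). Median intensities of the arrays ran from 112 to 124, and centring the arrays on them left 3 of the 8 enzyme calls. The deposited table has no detection calls.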

How the data were processed

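Log2 changes were computed from intensity values that the authors deposited for 35512 probe sets on 6 arrays. The submitters' processing notes name Affymetrix Expression Console. Its version, the summarization and any normalization were not stated there. On inspection the intensities are linear (0.71 to 8185.74). Values under 16 were set to 16 and log2 was taken without further scaling. No enzyme value was under this floor, the lowest being 137 for Impdh1. The floor is not the background of the arrays, and stromal markers reached 289. The platform's annotation gave 1 symbol for 21789 probe sets, several for 1621, and 12102 are unnamed here; the last 2 kinds were left out. Symbols follow RefSeq for GRCm38.p6 through Entrez numbers (21698 matched). The probe set of highest mean stood for a gene. Groups came from the treatment labels. Inhibitor was set against vehicle by lmFit and eBayes of limma 3.58.1 (R 4.3.3; 2-sided) over 19847 genes, those above the floor on at least 1 array, with Benjamini-Hochberg adjustment. SE and 95% intervals are the fit's and intervals are not adjusted; SD are of deposited intensities. The number of arrays limits the precision. On simulated arrays with these genes' means and spread, 13 of 100 genes with a log2 change of 0.3 were recovered. At a change of 0.5, 76 of 100 were. Only those genes were changed there, far fewer than the 2749 called here, which makes the adjustment stricter than in these data. The simulated recoveries may thus lie below those of the real fit. A gene that does not pass is still not shown to be unchanged.

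Named genes were the 9 enzymes, up to 4 genes of smallest p in each other list, and Prps2, Adss, Adssl1, Hprt, Myc and Mki67. Nt5c3b, Ctps, the genes that define the labelled cells, the B cell markers and the genes of extracellular purines were named after their values were seen. Other cell markers are given by counts. The enzymes and lists were chosen with earlier results of these data known. A planned comparison of Impdh1 with Impdh2 was not run because Impdh2 is not analysed here. The alternatives were a replicate block, quantile normalization, median centring, a floor of 32, log2 of intensity plus 16, filters on dim genes, the mean of probe sets, single probe sets, an intensity trend with robust prior, array weights and leaving out each array.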

Additional observations from a re-analysis of the deposited data

How the results depend on the processing

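The 161 values of the 9 enzymes under the alternatives were log2 fold changes from -0.51 to -0.13; the sign could not change where an array was left out, since no groups overlap. The count of enzymes called lower was 3 with median centring, 6 with centring on the median of the genes tested (an alternative chosen after seeing the data, as was the filter at the median intensity), and 1 to 5 when an array was left out. All genes called numbered 2749, against 4199 with an intensity trend and robust prior, 4334 with array weights, and 1183 to 2810 when an array was left out. Among the other nucleotide genes, lower calls numbered 34 with the intensity trend and 35 above the median intensity against 22, 15 and 17 with the 2 centrings, and 7 to 15 without an array. Higher calls there were 6, against 9 with the intensity trend, 8 above the median intensity, 8 with array weights, 7 above the 25th percentile, 2 with either centring, and 2 to 4 without an array. Of all calls, 48.7% were lower, against 33.4% to 46.3% without an array, 40.6% with the block and 56% above the median intensity. The causes were not tested.

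The replicate numbers were not shown to pair the samples: deviations of same-numbered arrays from their group means correlated at 0.24, 0.13 and -0.09 across genes. With the replicate number as a block, 2 enzymes were called lower (Prps1 and Gart), beside 681 of all 19847 genes tested. In that fit 1679 genes were called in all, 998 of them higher. The other nucleotide genes gave 12 lower and 3 higher calls. The shift between Prps1 and Prps2 stayed between -0.50 and -0.42 under its alternatives.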

Other observations

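Some receptor and channel genes for purines and other nucleotides outside the cell rose while the synthesis enzymes fell. This list was put together after the results above were known. Of 17 genes measured, 4 were called higher and none lower by limma over all 6 arrays. Of all genes tested, 7.1% were called higher and 6.75% lower. The median log2 fold change of the 17 genes was 0.10. P2ry6, a receptor for UDP, rose from 126 ± 6.06 to 269 ± 14.9 (SD, n = 3 each), and the ATP-gated channel gene P2rx7 rose from 199 ± 7.11 to 415 ± 35.6. Their log2 fold changes were 1.09 ± 0.06 and 1.06 ± 0.07 (SE). The P2ry6 means in both groups and the P2rx7 mean with vehicle lie within the range of the stromal markers (51.7 to 289). Those signals may thus be near background. P2rx4, another ATP-gated channel gene, rose by 0.80 and the membrane channel gene Panx1 by 0.44 on the log2 scale. At an unadjusted p under 0.05 the counts were the same, 4 higher and 0 lower, beside 2645 and 2749 of all 19847 genes tested. These 4 calls held in each of the 6 fits that leave out an array. In the same cells monocyte and macrophage markers had a median log2 change of 0.99, and their part in these rises was not tested. The ectonucleotidase gene Entpd1, which breaks down extracellular ATP, did not pass (log2 fold change -0.04), nor did P2ry2 (0.10).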
